A study of Rattus norvegicus with 3 samples.

Results

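The genes described here are 4 genes whose transcripts, in the rodent testis, are known mainly from germ cells: Ddx4, Tex101, Tex19.1 and Gtsf1. They were found by matching the RefSeq accession of each probe set to the rat gene symbol. Each of the 4 matched 1 probe set, out of 26419 probe sets in all, which stand for 26299 genes (9627 of them with a symbol). The study removed testes from Wistar-Imamichi rats at 3 ages, postnatal days 6, 8 and 10, counting birth as day 1. Total RNA was labelled with Cy3 and put on NimbleGen one-colour arrays, 1 for each age. The animals were untreated, and the labels do not say how many contributed to each RNA. Since each age has 1 array, effects of age, of the animals and of the array itself cannot be told apart, the spread between animals is unknown, and the values carry no test and no p-value.

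Germ cells carry proteins that other cells of the testis largely lack. DDX4, the mammalian vasa protein, is an RNA helicase of the DEAD-box family that sits in the granules where germ cells handle RNA. In the mouse, GTSF1 is a small zinc finger protein that works with PIWI proteins, whose short guide RNAs (piRNAs) direct the silencing of transposons, and TEX19.1 also restrains transposons and binds the ubiquitin ligase UBR2. TEX101 is a glycoprotein held on the germ cell surface by a lipid anchor, and mice without it make sperm that lack the ADAM3 surface protein. At the ages studied, the cords of the rat testis hold spermatogonia and their immediate precursors among a much larger number of Sertoli cells. RNA was taken from whole testis, so more germ cells and more RNA per germ cell cannot be told apart in any of the values below.

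In the deposited values 3 of the 4 genes were higher on day 10 while Ddx4 differed little. With a trend on genomic span subtracted, as described below, this contrast was smaller. The log2 differences between days 10 and 6 were then 0.51 for Ddx4, 1.72 for Tex101, 0.64 for Tex19.1 and 0.96 for Gtsf1. The sequence around the start of each gene is shown so that genes with like and unlike courses can be set side by side. Each runs from 250 bases before to 50 after the gene's start in the RefSeq table of build GRCr8, on the gene's own strand, and all 4 genes were matched there by symbol. Capitals mark a match, on either strand, to any of 5 short motifs. The E-box was searched as CACGTG, and the core of the E2F motif, which E2F cell cycle factors bind, as TCCCGC. The cyclic AMP response element was searched as TGACGTCA, the GC box, which SP1 binds, as GGGCGG, and the TATA box of core promoters as TATAAA. In Ddx4 the GC box and the reverse complement of TCCCGC overlap.
Ddx4 (chr2:46015902-46016201, minus strand): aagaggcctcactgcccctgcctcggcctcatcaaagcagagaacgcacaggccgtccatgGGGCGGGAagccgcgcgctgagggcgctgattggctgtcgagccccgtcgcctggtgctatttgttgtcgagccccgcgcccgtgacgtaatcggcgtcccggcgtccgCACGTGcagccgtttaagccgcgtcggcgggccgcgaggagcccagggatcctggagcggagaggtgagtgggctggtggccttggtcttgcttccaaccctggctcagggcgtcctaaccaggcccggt
Tex101 (chr1:89387291-89387590, minus strand): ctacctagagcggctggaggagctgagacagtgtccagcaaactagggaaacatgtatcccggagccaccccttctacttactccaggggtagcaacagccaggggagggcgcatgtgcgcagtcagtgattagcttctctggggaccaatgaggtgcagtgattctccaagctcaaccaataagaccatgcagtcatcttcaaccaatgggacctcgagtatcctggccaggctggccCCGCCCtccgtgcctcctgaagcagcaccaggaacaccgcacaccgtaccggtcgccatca
Tex19.1 (chr10:106918309-106918608, plus strand): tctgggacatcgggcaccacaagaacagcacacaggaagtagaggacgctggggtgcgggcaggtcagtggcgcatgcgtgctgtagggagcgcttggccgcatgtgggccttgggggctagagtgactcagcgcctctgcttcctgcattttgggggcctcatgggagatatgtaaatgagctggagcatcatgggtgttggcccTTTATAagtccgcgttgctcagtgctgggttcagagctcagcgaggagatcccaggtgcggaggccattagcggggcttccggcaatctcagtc
Gtsf1 (chr7:136435835-136436134, minus strand): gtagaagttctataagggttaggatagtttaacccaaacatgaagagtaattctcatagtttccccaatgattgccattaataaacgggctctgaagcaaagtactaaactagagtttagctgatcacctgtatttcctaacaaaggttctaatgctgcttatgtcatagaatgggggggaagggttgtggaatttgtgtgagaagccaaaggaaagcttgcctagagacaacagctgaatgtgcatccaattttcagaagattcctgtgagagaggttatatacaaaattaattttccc

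The Ddx4 start was the richest of the 4 in CG dinucleotides, with 32, against 14 for Tex19.1, 11 for Tex101 and 1 for Gtsf1. Over all 33469 promoters of this length the median was 7. The Ddx4 window held CACGTG, found in 6.42% of these promoters, TCCCGC, found in 18.7%, and GGGCGG, found in 33.1%. The Tex101 window held GGGCGG beginning 11 bases before the start. The Tex19.1 window held TATAAA, present in 14.2% of promoters, on the reverse strand, beginning 44 bases before the start. The Gtsf1 window held none of the 5, and TGACGTCA, found in 1.83% of promoters, was in none of the 4. Since the Gtsf1 window held none, it could share no motif searched with any other window. That it shared none with Tex19.1 therefore says nothing about the courses of these 2 genes. The annotated span of Ddx4 begins 146 bases and that of Gtsf1 965 bases before the start used, so that the annotated beginning of Gtsf1 lies outside its window.

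The deposited value is an intensity on a linear scale after RMA, a method that corrects background, draws the arrays' distributions together and summarises the probes of a transcript. Levels below are intensities or their log2. A difference is the log2 level on the later day minus that on the earlier one. The floor of an array was its median intensity (220.3, 221 and 203 on days 6, 8 and 10), which lay above the 95th percentile of the 1239 probe sets of olfactory and vomeronasal receptors. A random-sequence control read between 24.6 and 25.6. All 4 genes lay above the floor on all 3 arrays. A gene was called higher or lower at 2-fold or more, the submitters' own threshold. As a yardstick from within the arrays, the log2 differences of probe sets for the same gene were compared by their pooled SD. It came to 0.28 over 64 genes in the step from day 6 to day 8, to 0.46 over 67 genes in the step from day 8 to day 10, and to 0.41 over 66 genes across the whole interval. This does not measure the spread between animals.

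**Figure D1:**
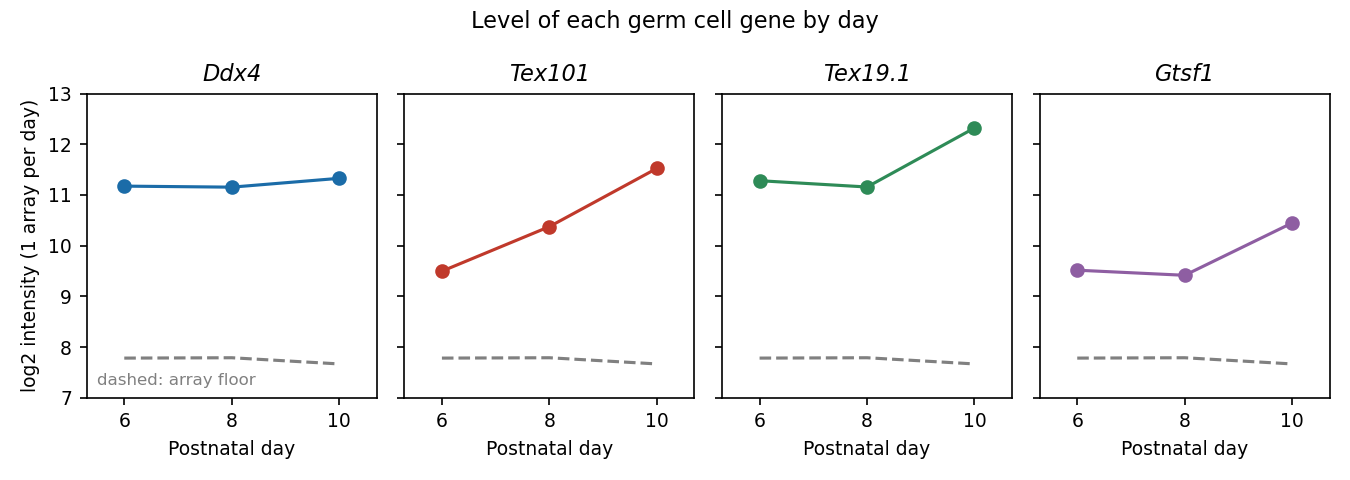
Log2 intensity (vertical axis) of Ddx4, Tex101, Tex19.1 and Gtsf1 on postnatal days 6, 8 and 10 (horizontal axis), with 1 array per point and the floor of each array as a dashed line. Ddx4 stays between 11.15 and 11.33, Tex101 goes from 9.50 through 10.38 to 11.52, and Tex19.1 and Gtsf1 are level from day 6 to day 8 and higher on day 10.

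Ddx4, the RNA helicase, was present from the first day at nearly the same level. Its intensities on days 6, 8 and 10 were 2310.4, 2278 and 2570.2, which is 10.5, 10.3 and 12.6 times the floor of the array. The 3 arrays lay close together, with day 10 slightly the highest. The log2 difference was -0.02 for day 8 against day 6, 0.17 for day 10 against day 8 and 0.15 for day 10 against day 6, each less than the pooled SD between probe sets of a gene. Of 13955 genes compared between days 6 and 10, 5959 (42.7%) had a larger rise, so Ddx4 lay near the middle of the genes compared.

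Tex101, the surface glycoprotein, was higher at each later age. Its intensities on days 6, 8 and 10 were 722, 1328 and 2943, or 3.28, 6.00 and 14.5 times the floor. The 3 ages were in ascending order, and the day 10 array stood furthest above the others. The first step was a 1.84-fold difference (log2 0.88), short of the threshold, and the second a 2.22-fold one (1.15). Day 10 was 4.07-fold above day 6 (2.03), a difference several times the pooled SD between probe sets. In the first step 130 of 13496 genes (0.963%) had a larger difference, and over the whole interval 117 of 13955 (0.838%), of which 26 had a symbol. The share of the log2 difference that fell in the first step was 43.4%.

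Tex19.1, the transposon restrainer, had intensities of 2488, 2283 and 5113 on days 6, 8 and 10. Days 6 and 8 were close, at 11.3 and 10.3 times the floor, and day 10 stood apart at 25.1 times. The log2 difference was -0.12 for day 8 against day 6. Day 10 was 2.24-fold above day 8 (log2 1.16) and 2.06-fold above day 6 (1.04). Over the whole interval 1107 of 13955 genes (7.93%) had a larger difference.

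Gtsf1, the PIWI partner, followed the same course from a level 3.32 times the floor. Its 3 intensities were 732, 683 and 1396. Again the first 2 ages were close and the last stood apart, at 6.86 times the floor. The difference was -0.10 for day 8 against day 6, and day 10 was 2.04-fold above day 8 (log2 1.03). Against day 6 the fold on day 10 was 1.91 (0.93), just short of the threshold, with 1383 of 13955 genes (9.91%) having a larger difference.

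Between days 8 and 6, 0 of the 4 genes were called, against 1.5% of the 13496 genes compared (0.519% higher and 0.978% lower). Between days 10 and 8, Tex101, Tex19.1 and Gtsf1 were called higher and 0 of the 4 lower, where 22.3% of 13969 genes were called (8.56% higher and 13.7% lower). Between days 10 and 6, Tex101 and Tex19.1 were called higher, where 21.4% of 13955 genes were called (8.57% higher and 12.8% lower). The comparisons share arrays, so the last 2 are not separate evidence on day 10. The number called depended on the scaling. When arrays were centred on their medians, the median difference of all genes between days 10 and 6 moved from 0.02 to 0.14, the share of called genes that were higher moved from 40.1% to 50.2%, and Gtsf1 was also called (1.05). Relative to the median of all genes as deposited, the differences were 2.00 for Tex101, 1.02 for Tex19.1, 0.91 for Gtsf1 and 0.13 for Ddx4.

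**Figure D2:**
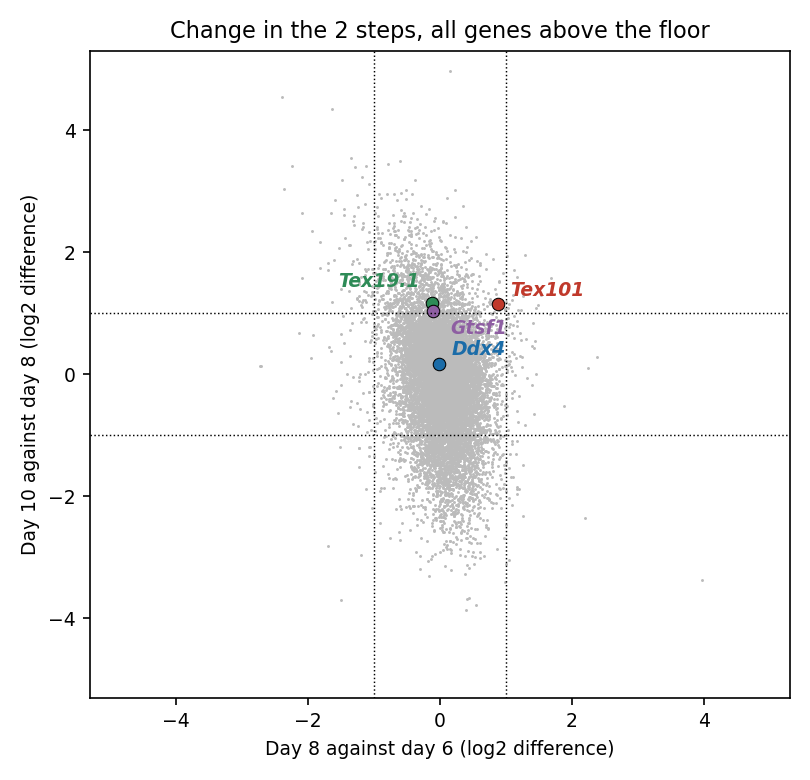
Log2 difference between days 8 and 6 (horizontal axis) and between days 10 and 8 (vertical axis) for all 14137 genes above the floor on at least 1 array (grey) and for the 4 germ cell genes (coloured and labelled), with dotted lines at 2-fold. Tex101 lies to the right, at 0.88 and 1.15, Tex19.1 (-0.12 and 1.16) and Gtsf1 (-0.10 and 1.03) almost coincide, and Ddx4 lies near the origin; the day 8 array enters both axes.

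Genomic span also moved with the differences. Across 5518 named genes, which are not independent replicates, Spearman's rho between span and the day 10 against day 6 difference was -0.43, longer genes being lower on day 10. Ddx4 is the longest of the 4, spanning 54.9 kb, followed by Gtsf1, by Tex101 with 4.37 kb and by Tex19.1 with 2.20 kb. With the trend subtracted, the differences between days 10 and 6 were 0.51 for Ddx4, 1.72 for Tex101, 0.64 for Tex19.1 and 0.96 for Gtsf1, so that Tex19.1 was no longer called. For day 10 against day 8 they were 0.50, 0.95, 0.85 and 1.10, and Tex101 and Tex19.1 fell short of 2-fold while Gtsf1 kept its call. The part of span in these differences was not tested further.

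The courses of the genes were set against each other and against the 4971 named genes above the floor on all 3 arrays, by the Euclidean distance between log2 profiles centred on each gene's own mean. With 3 arrays such a distance describes these arrays only, and it does not change when an array is shifted as a whole. Tex19.1 and Gtsf1 were 0.10 apart, and 15 genes were closer to Tex19.1 than Gtsf1 was. Tex101 was 0.81 from Tex19.1, 0.85 from Gtsf1 and 1.32 from Ddx4. Ddx4 was 0.77 from Tex19.1 and 0.67 from Gtsf1, and 3870 genes were closer to it than Gtsf1.

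The course of Ddx4 was common and that of Tex101 rare. Within a distance of 0.25 there were 1390 genes for Ddx4, 173 for Gtsf1, 118 for Tex19.1 and 3 for Tex101. The 3 nearest to Tex101 were Itgbl1, which encodes an integrin beta-like protein (distance 0.14), the matricellular gene Ccn5 (0.22) and the neuropeptide gene Npff (0.23). Nearest to Tex19.1 were Pdgfrl (0.016), Klhl35 (0.029) and Thg1l, which encodes a tRNA guanylyltransferase (0.037). Nearest to Gtsf1 were Khk, the fructose kinase (0.005), Arg1, the liver-type arginase (0.024), and Pank4 (0.028). Nearest to Ddx4 were the small GTPase gene Rac2 (0.006), the autophagy gene Gabarapl2 (0.007) and Acadvl, of fatty acid oxidation (0.007). None of these 12 was on the lists of germ cell, spermatogonial or meiotic genes. Those lists had 8 germ cell, 12 undifferentiated and 4 differentiating spermatogonial, and 10 meiotic genes on the arrays, beside 4971 named genes compared. With so few listed genes, their absence carries little information about shared courses.

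Among other germ cell genes the courses diverged. A textbook list of 20 germ cell genes, the 4 included, had 8 matched by name on the arrays, all above the floor on at least 1 of them. Between days 10 and 6, 2 were called higher (Tex101 and Tex19.1), 1 lower and 5 not called. Over all 13955 genes 21.4% were called (8.57% higher and 12.8% lower). The median difference of the 8 was 0.40, against 0.02 for all genes. Leaving out the 4 genes described above, the remaining 4 had a median of -0.19. Of those 4, 0 were called higher and 1 lower, near the called share over all genes. The one called lower was Dnmt3l, a cofactor of DNA methylation in perinatal male germ cells, whose intensities were 672, 102 and 112. It was under the floor on both later days, at least 3.03-fold lower on day 8 and at least 3.30-fold lower on day 10. Its first step was thus the larger one, where Tex19.1 and Gtsf1 differed by -0.12 and -0.10.

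The other 3 did not reach 2-fold in any step as deposited. Ddx25, a further DEAD-box helicase of germ cells that is also known from Leydig cells, had intensities of 1461, 1534 and 2191 (log2 0.58 for day 10 against day 6). Asz1, a mitochondrial outer membrane protein of the piRNA pathway, had 679.7, 722 and 793 (0.22). Sycp3, a protein of the chromosome axis in meiosis, was highest on day 6, at 639, against 328 and 419.8 (-0.96 for day 8 against day 6 and -0.61 for day 10 against day 6). The piRNA and transposon silencing list, which overlaps the first, had 7 of 26 genes matched, with 1 higher, 1 lower and 5 not called between days 10 and 6 (median 0.43), a called share not far from the 21.4% over all genes. Besides those named, it held Henmt1, the methyltransferase that caps the 3′ ends of piRNAs, at 295, 252 and 484 (0.72), and Tdrd7, a tudor protein of germ granules that other tissues also express, at 3315, 3283 and 4461 (0.43). For Henmt1 and Tdrd7, as for Tex19.1 and Gtsf1, the step from day 8 to day 10 was larger than that before it. The same held for Ddx4, Tex101, Ddx25 and Asz1. Over all genes, too, more were called in the second step (22.3%) than in the first (1.5%), so this trait is not particular to piRNA genes. The second step was 0.44 for Tdrd7 and 0.94 for Henmt1, short of 2-fold as deposited. For Henmt1 it was just past 2-fold with median (1.07), quantile (1.07) and cyclic loess (1.02) scaling. Dazl, Mael, Piwil2, Piwil4, Tdrd1, Tdrd9, Nanos2, Nanos3, Dnd1, Mov10l1, Rnf17 and Boll were not matched by name and are not analysed here.

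**Figure D3:**
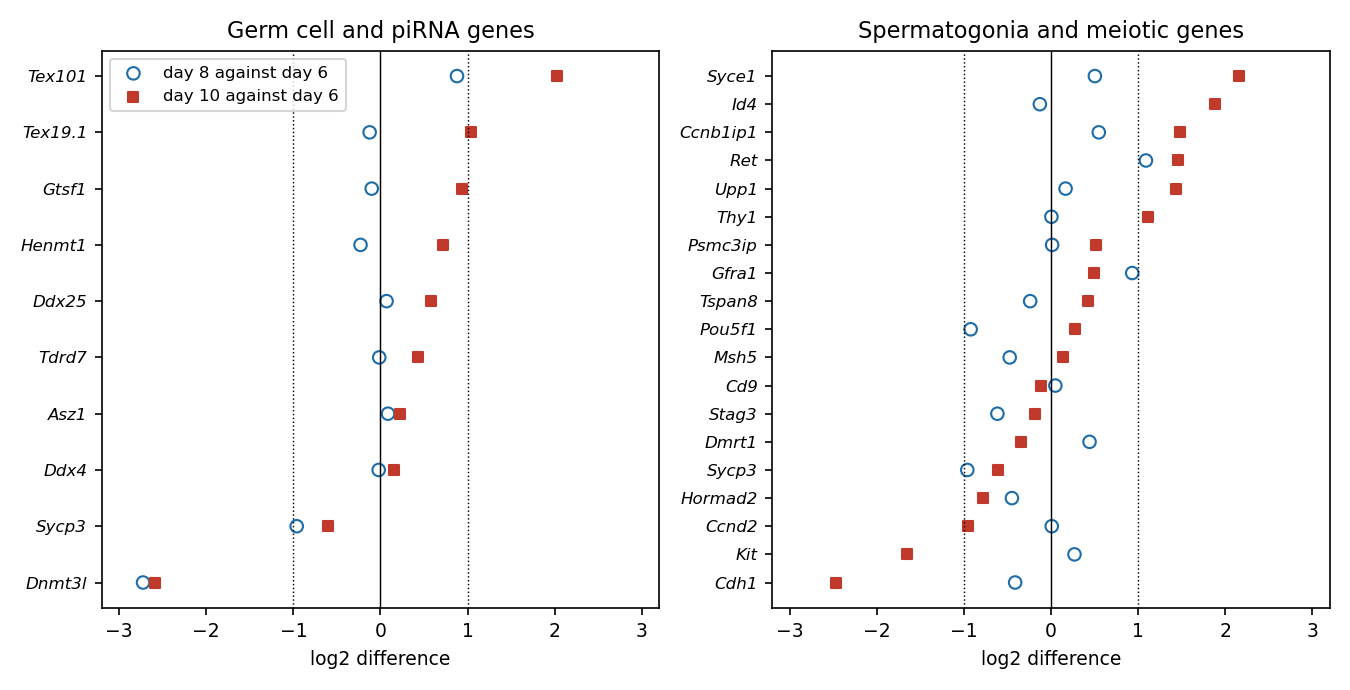
Log2 difference (horizontal axis) of day 8 against day 6 (open circles) and of day 10 against day 6 (squares) for the listed genes above the floor on at least 1 array, germ cell and piRNA genes on the left and spermatogonial and meiotic genes on the right, with dotted lines at 2-fold. Tex101, Tex19.1 and Gtsf1 head the left panel, Ddx4 lies near 0 and Dnmt3l is the lowest already on day 8. Points use the deposited values, so those of genes under the floor on 1 array or both, such as Dnmt3l on days 8 and 10, are not exact.

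Relatives and partners of the 4 genes were few on the arrays. Of 15 listed, 5 were matched by name, 3 were above the floor and 0 were called between days 10 and 6 (median 0.14). Over all 13955 genes 21.4% were called, so 0 of 3 carries little information. Adam1a, an ADAM family protein of male germ cells, had the largest difference (log2 levels 8.68, 9.10 and 9.56, difference 0.88). Ace, which in the mouse can release TEX101 from the sperm surface and which endothelium also makes, had 10.18, 9.82 and 10.32. Dpep3, a dipeptidase that binds TEX101 in the mouse, was under the floor on all 3 days, at 6.12, 6.33 and 7.53. The paralogs Tex19.2 and Gtsf2, and Ubr2, were not matched by name, so whether the Tex19.1 probes also take up RNA of its near copy was not tested.

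The symbol Tex only records that a transcript was first found in testis, and the courses of Tex genes differed. Of 11 such symbols with a number, 4 were above the floor, Tex101 and Tex19.1 among them. The others were Tex264, a receptor for autophagy of the endoplasmic reticulum that many tissues express (log2 levels 10.08, 10.69 and 11.02, difference 0.94 between days 10 and 6), and Tex261 (12.45, 12.70 and 12.82, difference 0.36). The remaining 7 (Tex21, Tex29, Tex35, Tex36, Tex44, Tex47 and Tex56p) were under the floor on every array.

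Markers of spermatogonial stages moved in both directions alongside the 4 genes. Calls rest on the deposited values, and where 1 of the 2 arrays was under the floor the count against the floor is given too; over all 13955 genes that stricter count called 16.3% (6.11% higher and 10.2% lower), beside 21.4% as deposited. Of 8 genes of undifferentiated spermatogonia above the floor on day 6 or 10 (12 on the arrays), 4 were called higher on day 10 and 1 lower (median 0.77), and against the floor 3 were higher and 1 lower (median 0.68). Ret, the GDNF receptor subunit, was 2.74-fold higher and Upp1, a uridine phosphorylase, 2.71-fold. Id4, an inhibitor of DNA-binding factors found in stem cells of the line, was under the floor on days 6 and 8 and is bounded at 1.92-fold higher or more, so 2-fold is not established for it. Cdh1, E-cadherin, was 5.54-fold lower. Of 3 genes of differentiating spermatogonia, 0 were higher and Kit was 3.16-fold lower (median -0.95). Kit spans 77.3 kb and Cdh1 69.4 kb, and longer genes were lower on day 10, as given above. The part of span in the differences of Kit and Cdh1 was not tested. In RNA of whole testis these values do not show which cells changed. Of 7 meiotic prophase genes, 2 were called higher and 0 lower (median 0.14), and 1 was higher against the floor. Syce1, a central element protein of the paired chromosomes, was at least 2.57-fold higher. Ccnb1ip1, which limits crossovers, was under the floor on day 6 and at least 1.77-fold higher, so 2-fold is not established for it. With 3 and 7 genes, the called shares of the last 2 lists are not far from those over all genes. In the first step Ret was called higher (1.09), where Tex101 had 0.88, while Upp1 had 0.17, where Tex19.1 and Gtsf1 had -0.12 and -0.10.

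Summed over their members on the arrays, the lists of other cell types changed as follows between days 6 and 10, and their part in the values of the 4 genes was not tested. The summed log2 level of the 8 germ cell genes was 13.24, 13.18 and 13.92, a difference of 0.68, and that of the 4 without Ddx4, Tex101, Tex19.1 and Gtsf1 was 11.75, 11.39 and 11.78, a difference of 0.03. The 14 Sertoli cell genes, 13 of them above the floor on some day, summed to 16.29, 16.46 and 16.22 (-0.06), with 2 of the 13 called higher and 2 lower. The 9 Leydig cell genes, 8 above the floor, summed to 15.43, 15.33 and 14.39 (-1.04), with 0 called higher and 3 lower. The 5 endothelial genes, all above the floor, summed to 12.58, 12.72 and 11.56 (-1.02). Of these, 0 were called higher and 3 lower, or 2 lower against the floor. The 7 macrophage genes, all above it, summed to 13.48, 13.63 and 13.80 (0.32), with 1 called higher and 0 lower. The 7 peritubular and smooth muscle genes differed by -0.11 in sum, with 2 called lower (Ptch1 and Cald1), and the 9 cell cycle genes by -0.02, with 0 called. Beside these counts, 21.4% of all 13955 genes were called between days 10 and 6 (8.57% higher and 12.8% lower). A sum follows its brightest probe sets. Somatic markers above the floor on day 10 included Amh and Inha of Sertoli cells (log2 10.60 and 14.51) and Cyp17a1 of Leydig cells (12.78). Others were under the floor on every array. Gata1 of Sertoli cells had log2 levels of 6.26, 6.36 and 7.30, and Lhcgr of Leydig cells 5.75, 7.03 and 5.23.

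**Figure D4:**
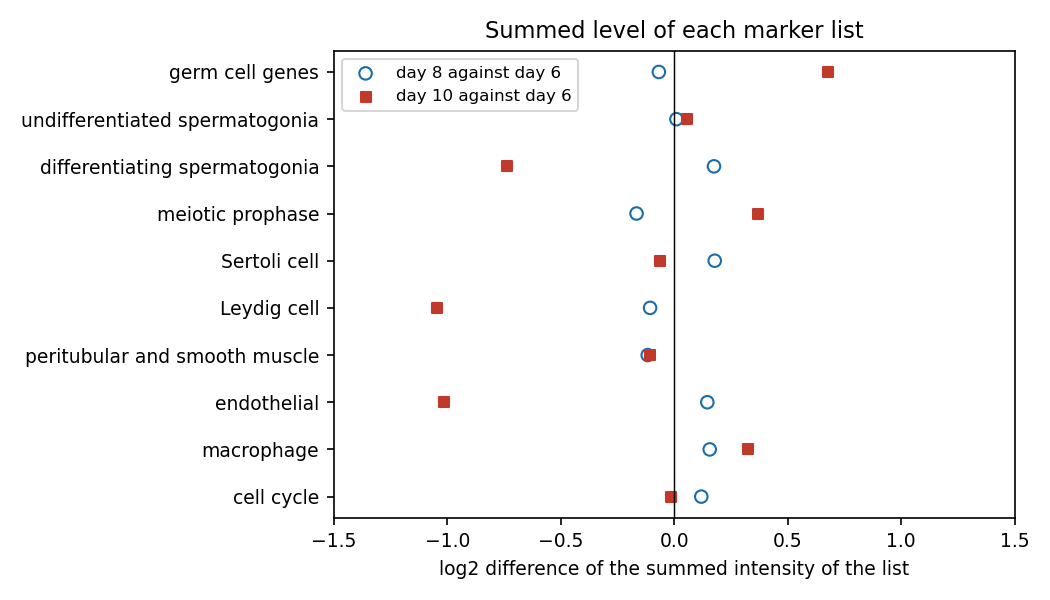
Log2 difference of the summed intensity (horizontal axis) of each marker list (vertical axis), day 8 against day 6 as open circles and day 10 against day 6 as squares. Between days 6 and 10 the germ cell list has the largest positive difference (0.68), of which the 4 genes described here make up most, and the Leydig cell (-1.04) and endothelial (-1.02) lists the largest negative ones.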

How the data were processed

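RNA of whole rat testis was measured on 3 one-colour NimbleGen arrays, 1 for each collection day (6, 8 and 10), which also defined the groups. The values are intensities on a linear scale that the authors deposited, 1 for each RefSeq accession on each array; per the submitters' processing notes they come from RMA. Its version is not given in the sources used here, nor are its settings. Because RMA forces the arrays towards 1 distribution, a change common to most genes would be hidden. The deposited series table holds identical intensities (largest difference 0). The standard error column of the files states no scale and was left out. The number of arrays limits the precision.

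Probe sets took their symbols from the GRCr8 RefSeq table by unversioned accession, which named 9747 of 26419 (36.9%); 16672 had no symbol and 0 had several. The table also supplied neighbours and spans. The files name no build, so the promoter coordinates are those of RefSeq alone. Intensities were taken to log2, and probe sets of 1 symbol were averaged. A comparison of 2 days used the genes that exceeded the floor on either array. The floor was an array's median, or the 95th percentile of its odorant and pheromone receptor probe sets if that was higher, which it never was. A fold against an array under the floor is a lower bound. No test was possible with 1 array per day. The calling step was run on copies of 1 array with known changes, planted well above the floor and past the threshold. The copies held no noise, so this checks the code and not how often real arrays give false calls.

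The 4 genes, the 12 gene lists and the naming rule were chosen with earlier results of these data known. The rule names the 4 genes, every germ cell list gene above the floor and Tex genes. Also named are the 3 genes nearest in profile to each of the 4. From the lists the rule takes the called genes with the largest differences (up to 3 per direction). For somatic lists only sums, call counts and a few markers are printed. Alternatives were median, quantile and cyclic loess scaling (limma 3.58.1 in R 4.3.3), other floors, a 1.5-fold threshold and subtraction of a lowess trend on log10 span (fraction 0.3, 3 iterations; statsmodels 0.14.6, Python 3.11.15).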

Additional observations from a re-analysis of the deposited data

How the results depend on the processing

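Median, quantile and cyclic loess scaling moved the level of each of the 4 genes on each day by less than 0.41 (36 of 36 values). That limit is the pooled SD between probe sets of the day 10 against day 6 differences. It is a weak check, because the arrays were already drawn together by RMA and median centring shifts all genes of an array alike. Of 48 differences between days, 44 stayed on their side of 2-fold and within the pooled SD of their comparison under these scalings and the span trend. The series table and the other floors cannot move these values. The other 4 were Gtsf1 for day 10 against day 6, called higher at 1.05 with arrays centred on their median, and, with the span trend subtracted, Tex101 (0.95) and Tex19.1 (0.85) for day 10 against day 8 and Tex19.1 (0.64) for day 10 against day 6, no longer called. Over the alternatives the day 10 against day 6 difference ran from 1.72 to 2.14 for Tex101, 0.64 to 1.15 for Tex19.1, 0.93 to 1.05 for Gtsf1 and 0.15 to 0.51 for Ddx4. In the germ cell list, the number lower on day 8 than on day 6 went from 1 to 2 with cyclic loess, with the span trend subtracted and at a 1.5-fold threshold. With the span trend subtracted, 1 gene was higher on day 10 against day 8 (3 as deposited) and 1 against day 6 (2 as deposited). At 1.5-fold, 1 was higher on day 8 and 2 were lower on day 10 than on day 6. Lowering the threshold adds genes by construction; for the other changes the cause was not tested. On the whole array, the 202 genes called for day 8 against day 6 became 688 with the floor at the receptors' 95th percentile, 765 with no floor, 1309 at 1.5-fold and 77 with the span trend subtracted, which covers named genes alone. The last 2 settings gave 6121 and 707 for day 10 against day 8 (3116 as deposited) and 6156 and 728 for day 10 against day 6 (2982 as deposited). Each gene of the 4 has 1 probe set, so no comparison of probe sets within a gene was possible. No replicate could be left out, and no paired analysis was possible because each day has 1 array.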

Other observations

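The nearest genes with a named probe set on either side of each of the 4 on the chromosome were chosen after the values of the 4 were seen. They included none that was called higher on day 10. Over all 13955 genes only 8.57% were called higher between days 10 and 6, and neighbours under the floor could not be called. The absence of calls is therefore no result about these regions. Next to Tex101, the related surface protein gene Lypd3 was under the floor on all 3 days (log2 6.88, 6.82 and 6.69) and Ceacam4 was 0.82 higher on day 10 than on day 6. Next to Tex19.1, Sectm1a had 9.41, 9.75 and 9.91, and Uts2r was under the floor throughout (4.71, 4.47 and 4.51). Next to Gtsf1, Nfe2 (6.26, 6.76 and 7.11) and Pde1b (6.48, 5.53 and 5.42) were under the floor on all 3 days. Next to Ddx4, Il6st had 11.10, 10.99 and 10.54 and Slc38a9 had 8.71, 8.33 and 8.17, both lower on day 10 by less than 2-fold.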
